A study of Homo sapiens with 8 samples.

Results

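Amino acid transporters of the plasma membrane were followed as 10 genes, SLC7A11, SLC7A5, SLC3A2, SLC7A1, SLC38A1, SLC38A2, SLC1A4, SLC1A5, SLC6A9 and SLC43A1. The members were taken by gene symbol. All 10 are listed in both count tables of the series, which hold 42125 and 23393 genes, and all 10 passed the filter on low counts in both. mRNA-seq was performed in HCT116, a human colorectal cancer cell line, in 8 libraries that form 4 groups of 2 replicates. The cells of all 8 libraries carried a Tet-On shRNA against SAE2, the catalytic subunit of the SUMO activating enzyme that is also called UBA2, and were grown in DMEM with 10% Tet-approved FBS. In the first experiment, cells received for 48 hrs either a control siRNA or one that targets TFAP2C, the transcription factor AP-2 gamma. In the second, cells were kept 5 days without doxycycline (Dox), which the labels describe as DMSO, or with 1 μg/mL of Dox, which turns on the shRNA and is labelled UBA2 KD. Dox was given to the UBA2 KD cells only, so an effect of Dox itself and one of the shRNA cannot be told apart, and the controls of the first experiment carry the same shRNA cassette. The labels do not say that replicates came from separate cultures, so p-values measure the spread between these libraries, which may be technical.

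Amino acids cross the plasma membrane through families of solute carriers, some of which exchange one amino acid for another while others use the sodium gradient to concentrate them in the cell. SLC7A5 and SLC7A11 work as light chains that need the heavy chain SLC3A2 (CD98hc) to reach the cell surface, giving the leucine exchanger LAT1 and the cystine/glutamate exchanger xCT. Tumor cells, colorectal cancer cells included, use such transporters to take up essential amino acids, glutamine and cystine, and the genes of several are known targets of ATF4, the transcription factor of the amino acid response.

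The targeted genes were examined first. TFAP2C mRNA was 18.9 and 20.5 CPM (counts scaled to the library size, with TMM factors) with control siRNA and 3.46 and 4.30 CPM in TFAP2C KD, a log2 fold change of -2.34 (adjusted p = 7.67e-06, edgeR's quasi-likelihood test). UBA2 mRNA was 162 and 146 CPM without Dox and 147 and 153 CPM in the libraries labelled UBA2 KD, which overlap (log2 fold change -0.036, adjusted p = 0.766). The count tables thus show the TFAP2C KD at the mRNA level and do not show the UBA2 KD, and directions below are those of the libraries labelled UBA2 KD. Total counts lay between 18213739 and 24465109. The 2 TFAP2C KD libraries differed more from each other, with a chi-square per degree of freedom of 9.15 over genes, than the pairs of the other 3 groups, with 2.56 to 2.77. Of 8 epithelial markers, 7 passed the filter in both experiments, VIL1 being the exception, and summed marker levels were 3120 to 3242 CPM with control siRNA and 3450 to 3739 CPM in TFAP2C KD. In the second experiment they were 2277 to 2298 CPM without Dox and 2525 to 2608 CPM in the libraries labelled UBA2 KD. KRT18, KRT8 and EPCAM rose there by 0.25, 0.18 and 0.15 on the log2 scale and CLDN4 fell by 0.17, while 0 of the 7 passed in TFAP2C KD (2 at an unadjusted p under 0.05). The part of these shifts in the results below was not tested. Markers of other cells summed to at most 6.45 CPM for leukocytes, 48.3 CPM for fibroblasts, 2.22 CPM for endothelium and 0.164 CPM for erythroid cells in any library.

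All 10 transporters rose in the libraries labelled UBA2 KD. Their log2 fold changes lay between 0.16 for SLC38A2 and 1.07 for SLC1A4, with a median of 0.73, where the median over all 13381 genes tested was -0.00042. Among those genes, 5.52% passed an adjusted p of 0.05 as higher and 4.47% as lower. For all 10 members, both libraries labelled UBA2 KD were above both controls, an ordering that 25.5% of all genes showed. The members were chosen with earlier results of these data known. Shares over all genes, here and below, therefore give a background and do not test the members as a set. Summed over the members, the level went from 4117 and 4009 CPM without Dox to 6043 and 5832 CPM. In bulk RNA, a change in the number of cells that express a gene and a change in RNA per cell cannot be told apart. The plot of each member by library shows these steps.

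**Figure D1:**
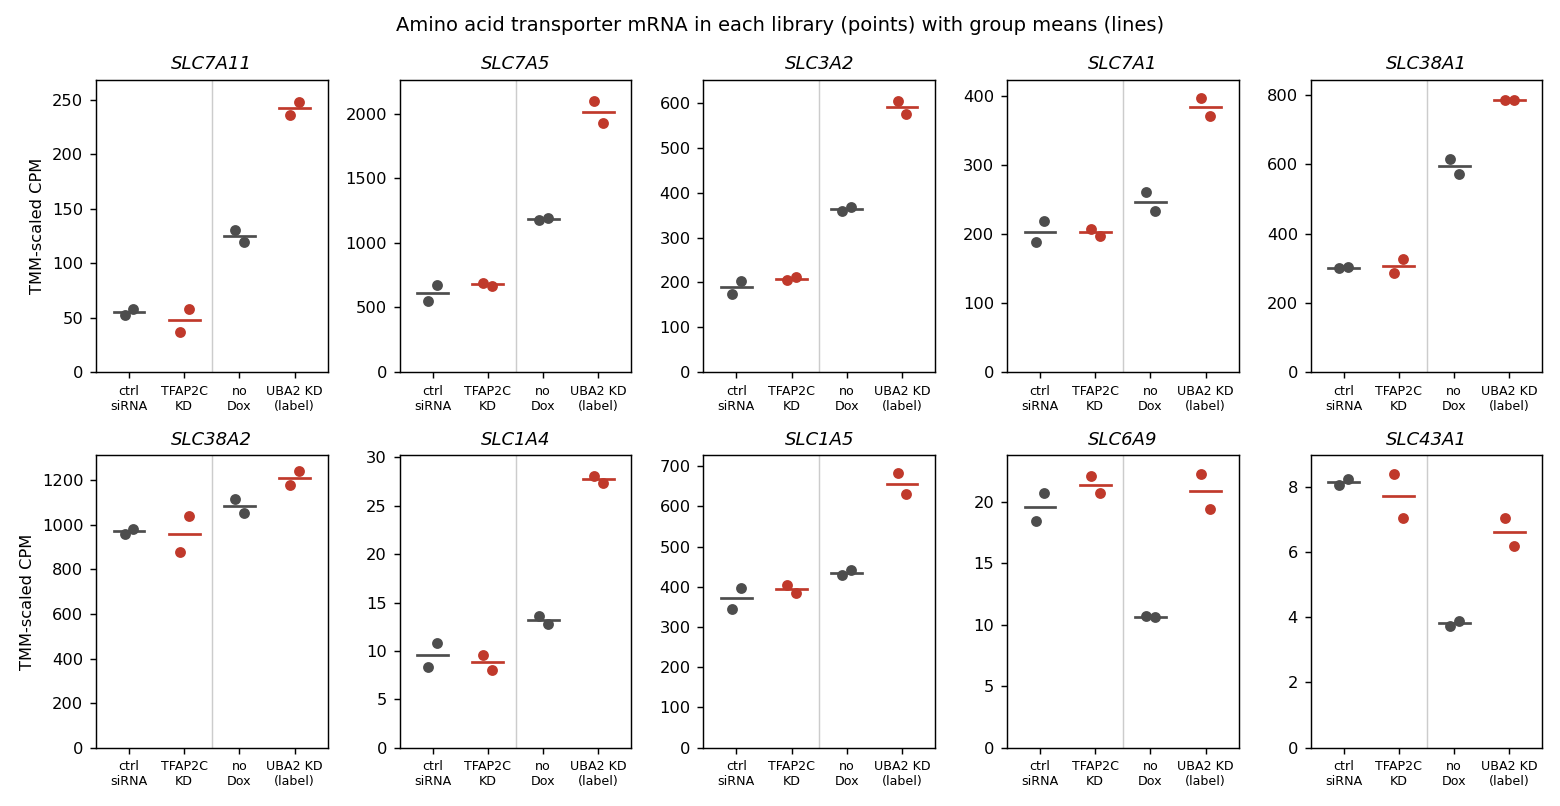
Level of each of the 10 transporters in TMM-scaled CPM (vertical axes, starting at 0, with a separate scale for each gene) in the 8 libraries, with points for libraries, lines for means of 2, grey for controls and red for knockdowns. On the right of each panel, both libraries labelled UBA2 KD lie above both controls without Dox, whereas on the left the siRNA groups overlap for 9 of the 10 genes, SLC3A2 being the exception.

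The promoter sequences of the members were searched for elements bound by factors of the amino acid response, of the antioxidant response and of the AP-2 and E-box families. RefSeq windows on GRCh38.p14, each from 250 bases before to 50 bases after a start site, were at hand for 9 of the 10 members, with 16 windows in all, and not for SLC7A11. The C/EBP-ATF response element, TGATGNAA on either strand, was present in 5 of these 9 members (SLC1A4, SLC1A5, SLC38A1, SLC3A2 and SLC7A1) and in 4.46% of 27305 genes with a window. Members with several start sites have several windows, and by window the element was present in 5 of 16 against 3.62% of 35116. The 5 matches are shown because this element had the lowest share among all genes of the 4 searched, each as 30 bases read 5′ to 3′ along the gene's strand with the element in capitals, and coordinates are those of the 30 bases. The SLC1A4 match (chr2:64989381-64989410, plus strand) begins 7 bases before a start site, that of SLC1A5 (chr19:46784893-46784922, minus strand) 97 bases before and that of SLC38A1 (chr12:46266502-46266531, minus strand) 4 bases before. The SLC3A2 match (chr11:62881719-62881748, plus strand) begins 37 bases after a start site and the SLC7A1 match (chr13:29595663-29595692, minus strand) 7 bases after. The windows of SLC1A4, SLC1A5, SLC38A1 and SLC3A2 lie within the span that the first count table gives the gene, and that of SLC7A1 straddles its 5′ end. In SLC1A4 and SLC3A2 the capitals hold the reverse complement of the element.
SLC1A4: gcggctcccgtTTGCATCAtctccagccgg
SLC1A5: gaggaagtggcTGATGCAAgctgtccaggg
SLC38A1: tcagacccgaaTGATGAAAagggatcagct
SLC3A2: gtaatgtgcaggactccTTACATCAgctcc
SLC7A1: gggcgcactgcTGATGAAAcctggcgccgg

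The other elements were more common among genes in general. The antioxidant response element, TGACNNNGC, was found in 4 of the 9 members (SLC7A5, SLC3A2, SLC7A1 and SLC1A5) and in 16.1% of all genes, or in 4 of 16 windows against 13.3%. The AP-2 element, GCCNNNGGC, was found in 5 of the 9 (SLC3A2, SLC7A1, SLC38A2, SLC1A4 and SLC1A5), as many members as for the C/EBP-ATF element, and in 26.6% of all genes, or in 6 of 16 windows against 23.2%. The E-box, CACGTG, was found in 3 of the 9 (SLC7A5, SLC1A5 and SLC43A1) and in 8.77% of all genes, or in 3 of 16 windows against 7.26%. Both strands were searched for each, and matches of different elements overlapped in 0 cases. A match describes letters in a window and does not show a bound site.

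SLC3A2 (hg19 chr11:62623484-62656355), the shared heavy chain, had 359 and 368 CPM without Dox and 606 and 575 CPM with Dox. The pair with Dox lay well above the pair without, and the log2 fold change was 0.70 (SE 0.045, adjusted p = 2.31e-13, edgeR). SLC7A5 (hg19 chr16:87863629-87903100), the light chain that carries leucine and other large neutral amino acids, had 1179 and 1193 CPM without Dox and 2098 and 1927 CPM with it. SLC7A5 had the highest CPM of the members with Dox, and the groups did not overlap (log2 fold change 0.76, SE 0.041, adjusted p = 3.74e-15, edgeR). By p it took place 7 among the 13381 genes. Near-identical pseudogenes could take reads from SLC7A5. The table lists 0 counts for SLC7A5P1 and 12 to 44 for SLC7A5P2, beside at least 22059 for SLC7A5 in each library. How reads that fit several copies were counted is not named in the sources used here, so these counts cannot show reads lost that way.

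SLC7A11 (hg19 chr4:139085248-139163503), the light chain that imports cystine in exchange for glutamate, had 131 and 120 CPM without Dox and 237 and 248 CPM with Dox. Its mean was 1.94-fold higher (95% confidence interval 1.79 to 2.09), the groups did not overlap, and the log2 fold change was 0.95 (SE 0.054, adjusted p = 1.33e-14, edgeR). An antisense gene, SLC7A11-AS1, overlaps it and had 0 counts in all 8 libraries. On the log2 scale the 95% interval of SLC7A11, 0.84 to 1.06, lay above that of its heavy chain, 0.61 to 0.79, though the difference between the genes was not tested. Per length (RPKM, from the gene lengths in the table), SLC7A11 stayed far below SLC3A2, with log2 ratios of -3.34 and -3.51 without Dox and -3.24 and -3.10 with it. The same ratio for SLC7A5 was 0.92 and 0.90 without Dox and 0.99 and 0.94 with it. Both ratios were higher in the libraries labelled UBA2 KD without overlap, and neither difference in ratio was tested.

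SLC7A1 (hg19 chr13:30083551-30169825), the transporter CAT1 for arginine and lysine, had 260 and 234 CPM without Dox and 397 and 371 CPM with it. The rise exceeded the spread of either pair (log2 fold change 0.64, SE 0.051, adjusted p = 4.66e-11, edgeR). SLC43A1 (hg19 chr11:57252004-57283192), or LAT3, lets large neutral amino acids pass down their gradient without a heavy chain. It was the member with the fewest reads, 70 and 81 counts without Dox and 127 and 115 with it, or 3.74, 3.88, 7.05 and 6.18 CPM. Its groups did not overlap, and its log2 fold change of 0.79 had the widest interval of the members, 0.46 to 1.12 (adjusted p = 0.000851, edgeR). With the Wald test of DESeq2 it missed the threshold (log2 fold change 0.80, adjusted p = 0.0637).

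The neutral amino acid exchangers SLC1A4 and SLC1A5 both rose. SLC1A4 (hg19 chr2:65215579-65251000), or ASCT1, which exchanges serine, alanine and cysteine, had 13.6 and 12.8 CPM without Dox and 28.04 and 27.4 CPM with it. Its log2 fold change of 1.07 was the largest of the 10, at place 22 of all genes by size (SE 0.093, adjusted p = 2.34e-10, edgeR). Replicates of SLC1A4 lay close together in both groups. SLC1A5 (hg19 chr19:47278140-47291842), or ASCT2, the main glutamine exchanger of many tumor cells, had 430 and 441 CPM without Dox and 682 and 631 CPM with it. Its groups did not overlap either (log2 fold change 0.59, SE 0.045, adjusted p = 1.24e-11, edgeR). The 95% interval of SLC1A4, 0.88 to 1.26 on the log2 scale, lay above that of SLC1A5, 0.50 to 0.68, and the difference between them was not tested either.

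Of the members, the SLC38 transporters changed least. SLC38A1 (hg19 chr12:46576841-46663208), or SNAT1, which concentrates glutamine and other small neutral amino acids, had 616 and 574 CPM without Dox and 787 and 785 CPM with it. The groups did not overlap, and the log2 fold change was 0.40 (SE 0.043, adjusted p = 2.28e-08, edgeR). SLC38A2 (hg19 chr12:46751971-46766645), or SNAT2, a close relative known to be induced when amino acids are scarce, had 1115 and 1053 CPM without Dox and 1180 and 1242 CPM with it. The groups lay side by side without overlap, and the log2 fold change was 0.16 (95% interval 0.076 to 0.25, adjusted p = 0.00994, edgeR). Its call was lost without control without Dox replicate 2 (0.12, adjusted p = 0.167), without UBA2 KD replicate 2 (0.12, adjusted p = 0.0661) and with all 8 libraries in the same fit (0.16, adjusted p = 0.230). SLC6A9 (hg19 chr1:44457172-44497164), or GLYT1, a sodium- and chloride-coupled glycine transporter, had 10.7 and 10.6 CPM without Dox and 22.3 and 19.4 CPM with it. It rose by a log2 fold change of 0.97 without overlap of the groups (SE 0.11, adjusted p = 3.05e-08, edgeR). SLC6A9 overlaps CCDC24 on the opposite strand, whose 172 and 205 counts without Dox and 177 and 164 with it showed no such step. The strand setting of the counting is not named in the sources used here, so reads of the pair could be shared.

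**Figure D2:**
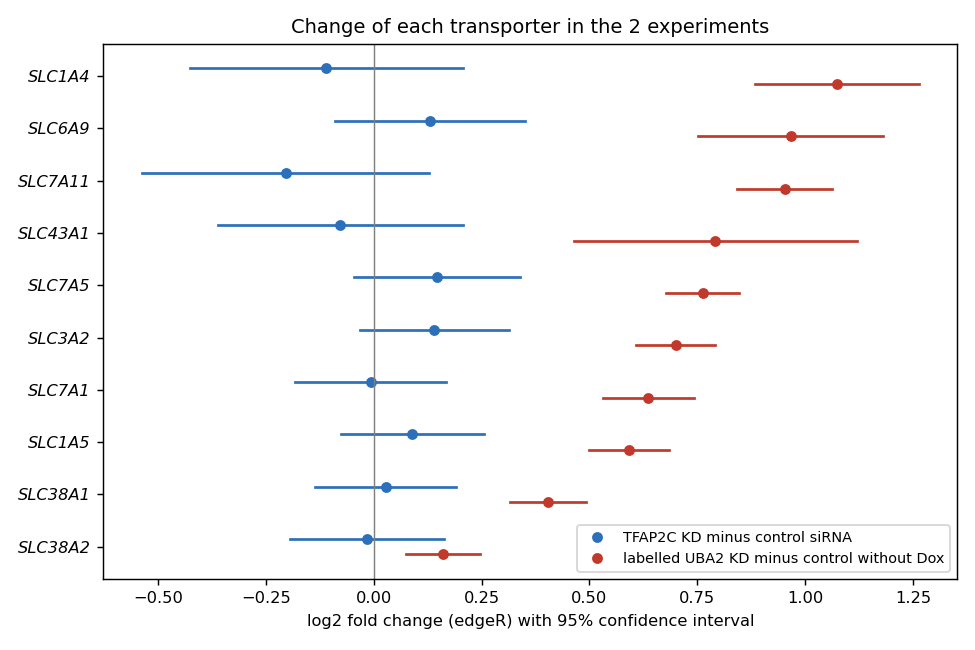
Log2 fold change of each transporter against its own control, with 95% confidence intervals from edgeR, with blue for TFAP2C KD and red for the libraries labelled UBA2 KD, ordered by the latter. The red intervals run from 0.076 for the low end of SLC38A2 to 1.26 for the high end of SLC1A4 and all lie above 0, while each blue interval includes 0.

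Levels per length spanned a wide range within the group. In the second experiment the order was the same in both groups, and in neither did the libraries of neighbouring genes overlap. SLC7A5 came first with 262 ± 2.26 RPKM (SD, n = 2) without Dox and 444 ± 26.7 RPKM with it. SLC38A2 followed with 217 ± 8.77 and 243 ± 8.90 RPKM, then SLC3A2 with 140 ± 2.59 and 227 ± 8.27 RPKM and SLC1A5 with 134 ± 2.36 and 201 ± 11.0 RPKM. These 4 genes formed the top of the order. SLC38A1, SLC7A1 and SLC7A11 stood in the middle, with 61.5 ± 3.07, 33.7 ± 2.55 and 13.0 ± 0.838 RPKM without Dox and 81.4 ± 0.135, 52.4 ± 2.52 and 25.1 ± 0.815 RPKM with it. SLC6A9, SLC1A4 and SLC43A1 were lowest, at 2.41 ± 0.0074, 1.95 ± 0.0809 and 1.45 ± 0.0383 RPKM without Dox and 4.72 ± 0.452, 4.09 ± 0.0677 and 2.52 ± 0.236 RPKM with it. The distance between SLC38A2 and SLC3A2 narrowed, since the former rose least and the latter more.

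In the first experiment SLC38A2 came first, with 149 ± 2.38 RPKM (SD, n = 2) with control siRNA, then SLC7A5 with 129 ± 18.7 and SLC1A5 with 112 ± 10.8 RPKM. The libraries of SLC7A5 and SLC1A5 overlapped, so their order is not resolved. SLC3A2, SLC38A1 and SLC7A1 had 36.7 ± 3.996, 30.1 ± 0.198 and 26.5 ± 2.88 RPKM. SLC7A11, SLC6A9, SLC43A1 and SLC1A4 had 5.70 ± 0.376, 3.81 ± 0.315, 2.32 ± 0.0410 and 1.38 ± 0.247 RPKM. In TFAP2C KD the order of the means was the same, and the libraries of SLC38A2 and SLC7A5 and those of SLC7A11 and SLC6A9 overlapped. Gene lengths differ between the tables, as for SLC3A2 with 5.163 kb in the first and 2.603 kb in the second, so levels were not compared across experiments.

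**Figure D3:**
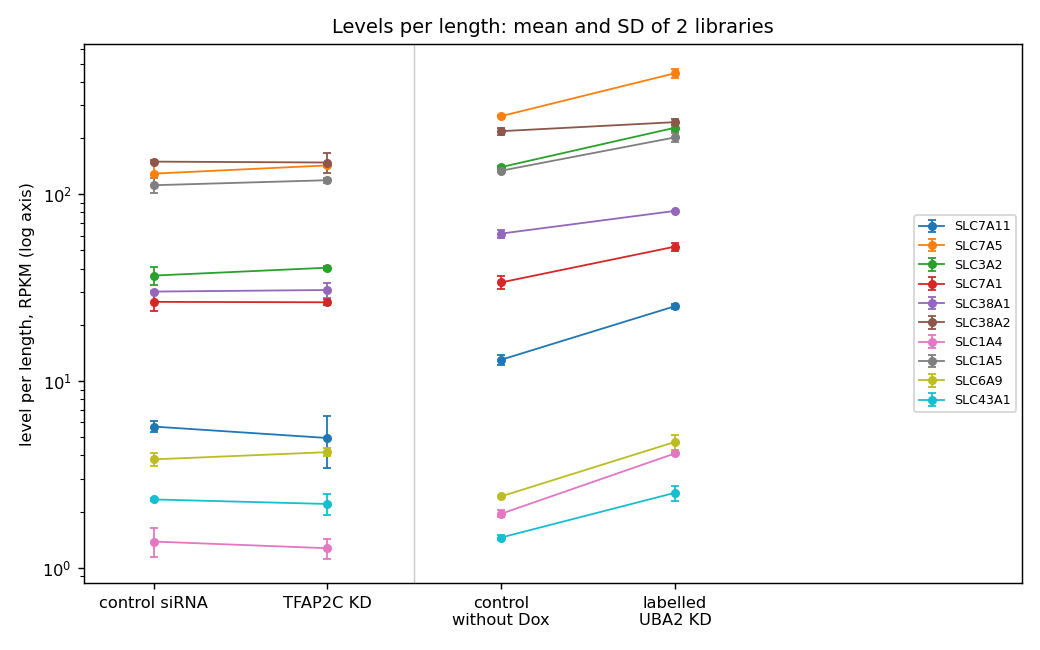
Mean level per length in RPKM on a log axis with SD of 2 libraries as error bars, for each transporter in the 4 groups, with lines joining a control to its knockdown. The lines of the second experiment all slope upward and none cross, from 262 to 444 RPKM at the top (SLC7A5) and from 1.45 to 2.52 RPKM at the bottom (SLC43A1), while those of the first lie near the horizontal.

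In TFAP2C KD, 0 of the 10 transporters passed an adjusted p of 0.05 in edgeR's quasi-likelihood test, 0 did at an unadjusted p under 0.05, and 0 did in the Wald test of DESeq2. Among all 14991 genes tested, 0.26% passed as higher and 0.48% as lower, so few calls were made at all. The log2 fold changes were above 0 for 5 members and below 0 for 5, between -0.20 and 0.15, with a median of 0.010 where all genes had a median of -0.0038. The 2 TFAP2C KD libraries lay beyond both controls for SLC3A2 alone, whereas 44.7% of all genes showed such a separation in either direction.

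SLC3A2 had 175 and 204 CPM with control siRNA and 205 and 212 CPM in TFAP2C KD, a narrow separation with a log2 fold change of 0.14 (95% interval -0.032 to 0.31, adjusted p = 0.489, edgeR). SLC7A5 had 549 and 675 CPM with control siRNA and 686 and 670 CPM in TFAP2C KD. The higher control overlapped the knockdown libraries (log2 fold change 0.15, interval -0.046 to 0.34, adjusted p = 0.519, edgeR). SLC7A11 had 52.4 and 57.5 CPM with control siRNA and 37.2 and 58.2 CPM in TFAP2C KD. One TFAP2C KD library was thus below both controls and the other above both, and the log2 fold change was -0.20 (interval -0.54 to 0.13, adjusted p = 0.611, edgeR). Without TFAP2C KD replicate 1 it was 0.087 (adjusted p = 0.683), and without TFAP2C KD replicate 2 it was -0.56 (adjusted p = 7.34e-10) in a fit that called 2825 genes in all. That fit also called SLC7A5 higher (0.17, adjusted p = 0.0461), and a single knockdown library is assumed there to vary like the controls.

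The other 7 transporters overlapped between the siRNA groups. SLC7A1 had 188 and 219 CPM with control siRNA and 208 and 197 CPM in TFAP2C KD, the knockdown libraries lying inside the range of the controls (log2 fold change -0.0073, interval -0.18 to 0.17). SLC1A5 had 346 and 396 CPM against 404 and 386 CPM (0.090, interval -0.077 to 0.26). SLC38A1 had 299 and 302 CPM against 286 and 327 CPM, and SLC38A2 had 959 and 981 CPM against 879 and 1040 CPM. In both of these sodium-coupled genes, the controls lay close together and the knockdown libraries fell on either side of them (log2 fold changes 0.028 and -0.016). SLC1A4 had 8.37 and 10.8 CPM against 9.59 and 8.05 CPM, SLC6A9 had 18.4 and 20.7 CPM against 22.1 and 20.7 CPM, and SLC43A1 had 8.04 and 8.25 CPM against 8.38 and 7.03 CPM. These low genes had log2 fold changes of -0.11 (interval -0.43 to 0.21), 0.13 (interval -0.089 to 0.35) and -0.077 (interval -0.36 to 0.21). A miss of the threshold does not show that these genes were unchanged, and the upper ends of the 10 intervals lay between 0.13 for SLC7A11 and 0.35 for SLC6A9. CCDC24, which overlaps SLC6A9, had 558 and 475 counts with control siRNA and 512 and 434 in TFAP2C KD. SLC6A9 itself had 449 and 432 counts against 530 and 462, so reads of the pair could be shared here too.

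Whether the transporters responded differently in the experiments was tested with all 8 libraries in 1 fit, as the log2 fold change in TFAP2C KD less that in the libraries labelled UBA2 KD. The difference was below 0 for all 10 members and passed an adjusted p of 0.05 for 9, where 2.37% of 13179 genes passed in either direction. It was widest for SLC1A4 (-1.19, SE 0.17, adjusted p = 0.00126, edgeR) and SLC7A11 (-1.17, SE 0.19, adjusted p = 0.00294, edgeR). SLC38A2 did not pass, with -0.19 (95% interval -0.40 to 0.022, adjusted p = 0.414, edgeR). The experiments also differ in time, delivery and library set, which this contrast cannot separate from the targets. Leaving out a library lowered the count of 9 to 3 (UBA2 KD replicate 1), 5 (control without Dox replicate 1), 6 (control siRNA replicate 2) or 7 (control siRNA replicate 1, UBA2 KD replicate 2 and control without Dox replicate 2). It was 9 without TFAP2C KD replicate 1 and 10 without TFAP2C KD replicate 2. With the replicate number as a block the count was 7. SLC7A11, SLC7A1 and SLC1A4 passed in each of these fits and in the other alternatives of this contrast.

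The genes with the most similar pattern to the xCT and LAT1 chains were sought among 12158 genes tested in both experiments, by the mean absolute difference over the 8 libraries in log2 CPM centred on the controls of each experiment. For SLC3A2 these were KLF4, a transcription factor, at 0.031, its own partner SLC7A5 at 0.037 and the gap junction gene GJB2 at 0.043. For SLC7A5 they were SLC3A2 at 0.037, FCGBP at 0.060 and KLF4 at 0.063. The heavy chain and the LAT1 light chain were thus each among the 3 nearest genes of the other. SLC7A11 was nearest to FAM228B at 0.077, SLFN5 at 0.088 and JDP2, a bZIP transcription factor, at 0.096, and its partner SLC3A2 was not among them. These 3 genes had log2 fold changes of 0.89, 0.90 and 0.98 in the libraries labelled UBA2 KD and -0.10, 0.0014 and -0.28 in TFAP2C KD. The likeness is a description over libraries of 2 experiments.

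Of a list of 29 other plasma membrane amino acid transporters, 12 passed the filter in the second experiment. In edgeR's quasi-likelihood test 0 of these rose and 4 fell (6 at an unadjusted p under 0.05). Among all genes tested there, 5.52% passed as higher and 4.47% as lower. The median log2 fold change of the 12 was -0.21. SLC7A8, or LAT2, another light chain of SLC3A2, had 7.05 and 6.57 CPM without Dox and 4.78 and 4.78 CPM with it, a fall without overlap (log2 fold change -0.51, adjusted p = 0.0264, edgeR). SLC1A3, a glutamate and aspartate transporter of the same family as SLC1A4 and SLC1A5, had 23.0 and 19.6 CPM without Dox and 16.1 and 15.4 CPM with it. It fell by 0.43 on the log2 scale (adjusted p = 0.00337, edgeR). SLC7A2, or CAT2, and the taurine transporter SLC6A6 fell less, by 0.24 and 0.19 (adjusted p = 0.0355 and adjusted p = 0.0392, edgeR). SLC7A2 had 42.5 and 41.2 CPM without Dox and 33.9 and 37.0 CPM with it, and SLC6A6 had 93.9 and 94.4 CPM against 85.2 and 80.2 CPM. SLC7A2 and SLC1A3, relatives of SLC7A1 and SLC1A5, therefore moved the other way from the members in the same libraries. The other 8 tested did not pass, with log2 fold changes from -0.31 for SLC16A10 to 0.099 for SLC38A5. Of the 12 tested, 9 lay below 0 and 3 above.

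In TFAP2C KD, 14 of the 29 were tested, of which 0 rose and 1 fell (4 at an unadjusted p under 0.05), with a median of 0.0085. Among all genes tested there, 0.26% passed as higher and 0.48% as lower. The gene that fell, SLC6A20, carries proline and related imino acids and had 6.65 and 6.76 CPM with control siRNA and 4.002 and 3.22 CPM in TFAP2C KD. Its groups did not overlap (log2 fold change -0.89, SE 0.15, adjusted p = 0.0207, edgeR). Of 8 transporters of lysosomes and other internal membranes, 7 were tested in each experiment and 0 passed in either, also at an unadjusted p under 0.05. Their median was 0.072 in the first experiment and 0.090 in the second.

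Among 20 genes of amino acid sensing and the signalling around it, 19 were tested in the second experiment. Of these, 2 rose and 1 fell, with a median of 0.032, where 5.52% of all genes passed as higher and 4.47% as lower. ATF4 had 217 and 227 CPM without Dox and 368 and 359 CPM with it (log2 fold change 0.71, adjusted p = 6.82e-13, edgeR). SESN2, a leucine sensor that restrains mTORC1, had 25.3 and 27.9 CPM without Dox and 65.2 and 60.0 CPM with it (log2 fold change 1.23, adjusted p = 6.06e-14, edgeR). Both rose without overlap of the groups. SESN3, of the same family, had 7.80 and 7.67 CPM without Dox and 4.33 and 5.53 CPM with it, a fall without overlap (log2 fold change -0.65, adjusted p = 0.00384, edgeR). EIF2AK4, which encodes the kinase GCN2 upstream of ATF4, had 160 and 149 CPM against 152 and 152 CPM, which overlap (log2 fold change -0.024, adjusted p = 0.845, edgeR). In TFAP2C KD all 20 were tested and 0 passed, also at an unadjusted p under 0.05, with ATF4 at a log2 fold change of -0.0096 and SESN2 at 0.20.

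**Figure D4:**
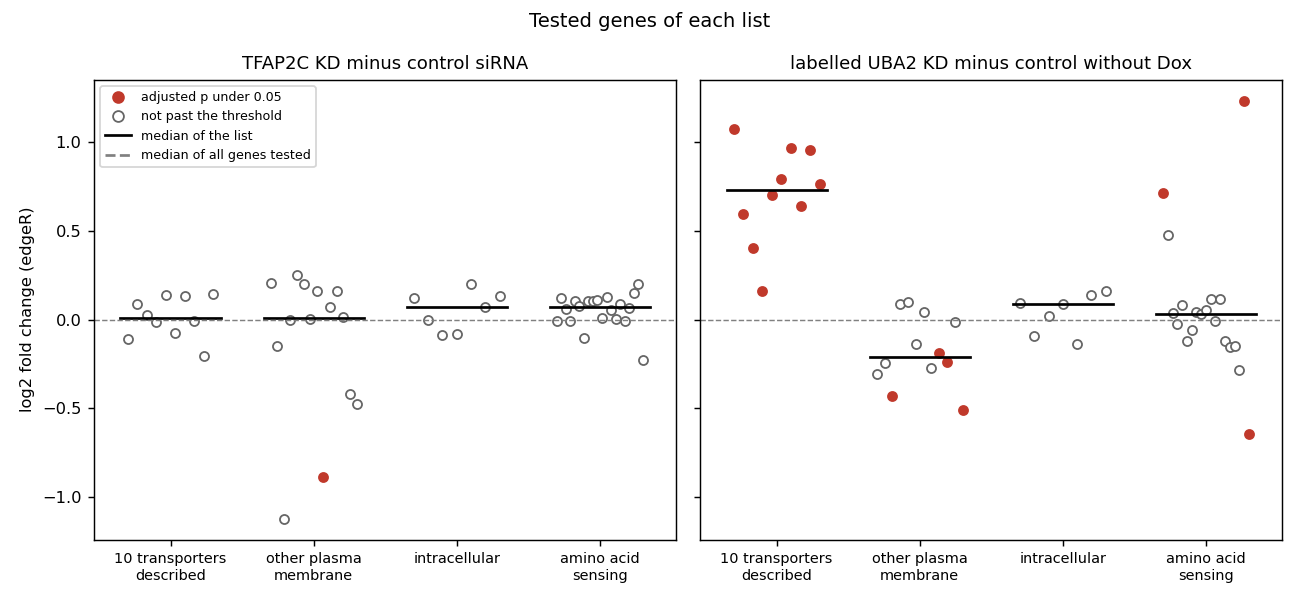
Log2 fold change from edgeR of each tested gene in 4 lists, for TFAP2C KD (left) and the libraries labelled UBA2 KD (right), with filled points for an adjusted p under 0.05, black bars for list medians and a dashed line for the median of all genes. On the right, the 10 transporters lie above 0 with a median of 0.73. The 12 other plasma membrane transporters tested there have a median of -0.21, and SESN2 is the highest point of the sensing list at 1.23. The lists were chosen with earlier results of these data known.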

How the data were processed

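Per the labels and the study's methods, total RNA was made into KAPA mRNA libraries, single-end reads were aligned with TopHat2 to hg19, and reads were counted on RefSeq genes with HTSeq 0.9.1 (version from the submitters' processing notes). For each experiment the authors deposited 1 table of raw, unnormalized counts by gene. The table of TFAP2C KD carries GRCh38 positions and Ensembl gene types, unlike the stated build, and 37 mitochondrial genes. The other carries hg19 positions and 0 mitochondrial genes, so each table was fitted alone. Here, genes were filtered with filterByExpr, scaled by TMM and tested two-sided with the quasi-likelihood test of edgeR 4.0.16 (R 4.3.3) and Benjamini-Hochberg adjustment over all genes tested. CPM and RPKM were computed from the counts, SEs from the fold change and its F statistic. The difference between experiments was fitted over symbols that both tables share (21257). The biological coefficient of variation was 6.28% for TFAP2C KD and 3.56% for the second experiment. Depth is given as total counts, and intervals are 95% confidence intervals. The code was tested on simulated data. The members and gene lists were chosen with earlier results of these data known. Named are all members, the targets, genes of the lists past the threshold (at most 8 for each list) and the 3 genes most like each of 3 members. SLC1A2, with a log2 fold change of -1.12 in TFAP2C KD, did not pass (adjusted p = 0.150, edgeR's quasi-likelihood test) and is not described further. EIF2AK4, SLC16A10 and SLC38A5 were named after their values were seen. PQLC2, GATSL3 and GATSL2 were read as SLC66A1, CASTOR1 and CASTOR2 where a table uses the older symbol. Promoter windows are those of RefSeq on GRCh38.p14. Alternatives were DESeq2 size factors, library size only, a block for the replicate number, no filter, at least 10 counts in each library, 1 fit of all 8 libraries, DESeq2 1.42.0 in place of edgeR, and fits without 1 library.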

Additional observations from a re-analysis of the deposited data

Results flagged for a closer look

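For 9 of the 10 transporters, the log2 fold change in TFAP2C KD differed from that in the libraries labelled UBA2 KD in a test of the difference itself with edgeR. Among all 13179 genes in that test, 2.37% passed in either direction. The count of 9 changed with the fit, as given above. The difference was -1.19 for SLC1A4, -1.17 for SLC7A11, -0.88 for SLC43A1 and -0.85 for SLC6A9, the members with the largest rises with Dox. It was -0.66 for SLC7A1, -0.63 for SLC7A5, -0.57 for SLC3A2, -0.52 for SLC1A5 and -0.39 for SLC38A1. Adjusted p-values from edgeR's quasi-likelihood test ran from 0.00126 for SLC1A4 to 0.0360 for SLC38A1. The experiments differ in reagent, duration and counting table, so these cannot be told apart from the targeted gene.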

How the results depend on the processing

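The rise of the members with Dox kept its direction under all 12 alternatives for each gene. The calls lost were that of SLC43A1 with the Wald test of DESeq2 and those of SLC38A2 given above, and the count of members higher was 9 to 10 without 1 library. Of all genes, 1336 passed there, against 662 with the Wald test, 696 with all 8 libraries in the same fit and 833 to 1271 without 1 library. In TFAP2C KD 111 passed, against 172 with the replicate block, 398 with no filter, 271 with all 8 libraries and 49 to 2825 without 1 library, where 0 to 1 members were higher and 0 to 1 lower. Without 1 library there, members that were not called turned sign, with ranges of -0.11 to 0.098 for SLC7A1 (0.098 without control siRNA replicate 2 and 0.033 without TFAP2C KD replicate 2), -0.29 to 0.067 for SLC1A4 (0.067 and 0.015 without the same libraries), -0.0059 to 0.18 for SLC1A5 (lowest without control siRNA replicate 1), -0.56 to 0.087 for SLC7A11 and -0.14 to 0.10 for SLC38A2 (both highest without TFAP2C KD replicate 1), and -0.069 to 0.12 for SLC38A1 and -0.21 to 0.045 for SLC43A1 (lowest and highest without TFAP2C KD replicate 2). For the difference, 313 genes passed, against 173 with the replicate block and 113 to 1554 without 1 library, where 3 to 10 members passed. The causes were not tested.

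The labels name nothing that same-numbered libraries share beyond the number. Deviations of such pairs correlated at -0.39 and -0.11, and the block left 0 and 10 members called. With the numbers crossed as a block, chosen after seeing the data, 467 and 1708 genes passed, against 111 and 1336 with no block. Whether libraries were handled in batches was not tested. Library size alone moved 3 of 40 group means by more than their SD. SLC43A1, with 70 to 127 counts in the second experiment, is limited most by depth.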
